A study of Mus musculus with 7 samples.

Results

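Narrow HDAC1 peaks at coding promoters were the regions of 300 bp or less in the HDAC1 peak list of mouse limb buds that lay at the start of a protein-coding gene. A member overlapped by at least 1 bp the window from 2 kb before to 1 kb past the transcription start site (TSS) of a protein-coding transcript in GENCODE M21 basic, and peaks between 2 opposite-strand coding TSSs that were 1000 bp or less apart were left out. Of the 15347 peaks in the list, 4989 were 300 bp or less, 2579 of these lay in a coding window, 86 of those were left out as lying between opposite-strand TSSs, and 2493 (16.2% of all peaks) remained as members. The members were therefore selected on the length and position of the same pooled peak call that supplies their rank, and length, rank and position are given below as descriptions.

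HDAC1 binding was measured by chromatin immunoprecipitation and sequencing (ChIP-seq) in 4 HDAC1 ChIP samples, with 3 input samples prepared without antibody. All samples came from wild-type Swiss Webster embryos at E11.5 (40 to 44 somites), with forelimb and hindlimb buds combined and 3 litters named on each sample's label. The deposited list holds only a chromosome, a start and an end for each peak, called over all samples together, so it gives no read count, height or value in a single sample for a peak, and the depth behind each peak and a replicate spread against which a difference could be tested cannot be had from it. An enrichment and a false discovery rate for each peak accompany the paper and were not used here. Shares below carry 95% Wilson intervals over peaks or genes, which cover counting error only, and neighbouring peaks are not independent. Because the buds hold several cell types, binding in fewer cells and weaker binding per cell cannot be told apart.

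HDAC1 is a class I histone deacetylase that removes acetyl groups from histone tails, and it has no sequence-specific DNA binding of its own. It works as a catalytic subunit of corepressor complexes such as Sin3, NuRD and CoREST, which are brought to DNA by transcription factors, and it is found at the promoters of many active genes as well as at silenced ones. Many mammalian coding promoters lie in CpG islands, stretches that are rich in G and C and retain the CpG dinucleotide that is depleted elsewhere in the genome.

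Members fell into 2 kinds that the rest of the account turns on. A sole narrow peak had no peak over 300 bp in any coding TSS window of its gene, and an accompanied narrow peak had at least 1. There were 1464 sole peaks (58.7% of members, 56.8 to 60.6) and 1029 accompanied peaks. The sequences of 9 members are shown to let the 2 kinds be compared on both sides of the TSS. They are the best-ranked members that overlap no exon and do not cover the TSS, on all chromosomes but 1, from which no sequence is shown, 2 of each kind on each side except for 1 sole upstream peak, followed by the best-ranked such member of the hedgehog pathway and of the limb patterning factors. Each is the mm10 (GRCm38) reference sequence of the whole peak, read 5′ to 3′ on the strand of the gene, and capitals mark matches on either strand to 13 short motifs.

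The sole upstream peak was that of Kbtbd12, a kelch and BTB domain gene, at chr6:88627500-88627799 on the minus strand, 58 bp before the TSS and outside coding genes.
Kbtbd12: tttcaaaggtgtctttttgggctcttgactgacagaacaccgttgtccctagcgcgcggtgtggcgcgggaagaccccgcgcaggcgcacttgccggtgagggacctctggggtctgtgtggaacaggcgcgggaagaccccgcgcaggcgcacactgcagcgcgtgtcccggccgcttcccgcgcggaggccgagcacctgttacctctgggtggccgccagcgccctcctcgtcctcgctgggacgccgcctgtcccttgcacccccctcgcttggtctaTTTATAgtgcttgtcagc

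The accompanied upstream peaks were those of Id2, an inhibitor of basic helix-loop-helix factors, at chr12:25097250-25097549 on the minus strand, and of Kif13a, a kinesin motor, at chr13:46930700-46930999 on the minus strand, 110 and 982 bp before the TSS and outside coding genes.
Id2: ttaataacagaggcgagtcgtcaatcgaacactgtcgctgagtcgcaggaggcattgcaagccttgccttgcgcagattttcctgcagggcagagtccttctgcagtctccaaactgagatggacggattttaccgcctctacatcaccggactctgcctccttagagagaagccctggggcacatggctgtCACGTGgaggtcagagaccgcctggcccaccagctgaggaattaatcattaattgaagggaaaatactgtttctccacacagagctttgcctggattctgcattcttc
Kif13a: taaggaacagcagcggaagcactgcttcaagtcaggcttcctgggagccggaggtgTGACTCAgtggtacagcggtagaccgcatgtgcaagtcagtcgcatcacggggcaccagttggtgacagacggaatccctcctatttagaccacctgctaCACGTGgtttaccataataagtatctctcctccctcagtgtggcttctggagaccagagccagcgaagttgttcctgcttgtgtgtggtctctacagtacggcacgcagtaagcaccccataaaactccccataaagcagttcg

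The sole downstream peaks lay in the introns of Bclaf3 at chrX:159532950-159533249 on the plus strand and of Ttc39b, a tetratricopeptide repeat gene, at chr4:83323550-83323849 on the minus strand.
Bclaf3: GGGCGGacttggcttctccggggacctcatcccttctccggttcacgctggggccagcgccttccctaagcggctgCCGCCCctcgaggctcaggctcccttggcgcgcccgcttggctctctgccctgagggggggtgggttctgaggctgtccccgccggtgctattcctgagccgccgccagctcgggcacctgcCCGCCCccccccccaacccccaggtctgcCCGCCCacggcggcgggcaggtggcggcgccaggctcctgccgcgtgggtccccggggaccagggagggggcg
Ttc39b: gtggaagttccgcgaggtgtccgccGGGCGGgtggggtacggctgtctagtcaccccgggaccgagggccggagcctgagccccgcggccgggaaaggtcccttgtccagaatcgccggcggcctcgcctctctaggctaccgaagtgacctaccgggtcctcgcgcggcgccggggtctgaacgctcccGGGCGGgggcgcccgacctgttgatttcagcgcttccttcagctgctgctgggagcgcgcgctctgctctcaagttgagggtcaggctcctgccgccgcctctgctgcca

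The accompanied downstream peaks lay in the introns of Slitrk5, which encodes a transmembrane protein of neurons, at chr14:111675800-111676099 on the plus strand and of Arf4, a small GTPase of Golgi traffic, at chr14:26639200-26639499 on the plus strand.
Slitrk5: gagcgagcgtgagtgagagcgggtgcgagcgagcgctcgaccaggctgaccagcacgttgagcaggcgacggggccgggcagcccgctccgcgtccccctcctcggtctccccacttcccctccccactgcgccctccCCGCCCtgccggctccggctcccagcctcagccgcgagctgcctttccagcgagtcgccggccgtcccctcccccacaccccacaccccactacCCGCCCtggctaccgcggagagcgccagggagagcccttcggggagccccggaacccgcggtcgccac
Arf4: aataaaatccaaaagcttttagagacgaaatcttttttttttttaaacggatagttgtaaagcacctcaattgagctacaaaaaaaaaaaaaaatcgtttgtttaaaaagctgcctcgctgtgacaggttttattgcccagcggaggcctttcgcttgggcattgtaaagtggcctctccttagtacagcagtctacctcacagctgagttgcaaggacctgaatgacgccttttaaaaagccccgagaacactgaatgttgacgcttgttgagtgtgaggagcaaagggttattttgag

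From the pathway lists, Disp1, which encodes the membrane protein that releases lipid-modified hedgehog ligand from the cell, had its best-ranked member in an intron, 89 bp before an internal TSS, at chr1:183147550-183147849 on the minus strand, and Irx5, an Iroquois homeobox factor, had one in an intron 701 bp past the TSS at chr8:92358450-92358749 on the plus strand.
Disp1: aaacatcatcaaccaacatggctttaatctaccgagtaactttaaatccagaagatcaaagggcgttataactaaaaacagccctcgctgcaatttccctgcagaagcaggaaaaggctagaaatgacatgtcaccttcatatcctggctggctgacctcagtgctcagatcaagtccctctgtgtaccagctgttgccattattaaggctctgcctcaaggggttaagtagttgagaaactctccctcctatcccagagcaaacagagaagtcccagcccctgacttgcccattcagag
Irx5: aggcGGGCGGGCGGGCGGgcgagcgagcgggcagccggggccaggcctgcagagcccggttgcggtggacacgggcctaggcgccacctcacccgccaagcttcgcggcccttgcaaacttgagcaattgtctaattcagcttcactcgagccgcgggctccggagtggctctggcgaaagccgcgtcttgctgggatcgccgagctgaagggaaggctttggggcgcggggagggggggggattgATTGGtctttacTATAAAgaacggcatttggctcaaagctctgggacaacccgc

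The 9 sequences differed widely in base composition. The sole peaks of Kbtbd12, Bclaf3 and Ttc39b had a GC content of 66.7%, 76.0% and 70.7% and held 30, 27 and 34 CpG dinucleotides. Among the accompanied peaks, Id2 (52.0% GC, 11 CpG), Kif13a (53.7% GC, 12 CpG) and Arf4 (40.7% GC, 9 CpG) had fewer CpG, whereas Slitrk5 (75.3% GC, 34 CpG) was like the sole peaks. The sole Disp1 peak went the other way, with 46.7% GC and 3 CpG in 300 bp. The accompanied Irx5 peak had 66.0% GC, 28 CpG and 3 overlapping matches to the GC box, GGGCGG. Bclaf3 held 4 matches to the GC box and Ttc39b and Slitrk5 held 2 each, while the peaks of Id2 and Kif13a each held the palindromic E-box CACGTG.

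Members came mainly from the later part of the list, whose row order was taken as the rank given by the peak caller. The best-ranked member, at Crls1, stood at rank 1317 and the median member at rank 11556, while the 7423 longer peaks chosen by the same position rule had a median rank of 4860. When the list was cut into 4 equal parts, the first held 30 members, the second 317, the third 888 and the last 1258. Peak length came in steps of 50 bp. There were 3 members of 100 bp, 197 of 150 bp, 679 of 200 bp, 864 of 250 bp and 750 of 300 bp. Just inside the length limit, the 750 members of 300 bp had a median rank of 9534.5 and 34.5% of them covered a TSS. Just outside it, 630 coding-promoter peaks of 350 bp had a median rank of 9281 and 42.9% of them covered a TSS.

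Members lay on 20 chromosomes, with 88 on X and 0 on Y. The share of a chromosome's coding genes that held a member ran from 7.27% on chromosome 7 to 15.1% on chromosome 18. Chromosome X had the highest share of sole peaks, 64 of its 88 members, and chromosome 17 the lowest, 51 of 112.

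Narrow promoter peaks lay more often past the TSS than before it. Of the 2493 members, 1193 (47.9%, 45.9 to 49.8) lay wholly downstream of the nearest coding TSS, within the transcribed part of the gene, 668 (26.8%, 25.1 to 28.6) lay wholly upstream and 632 (25.4%, 23.7 to 27.1) covered the TSS. Longer coding-promoter peaks covered the TSS in 72% of cases, with 20.8% downstream and 7.14% upstream, and a longer region has more room to cover a site. Among peaks that did not cover a TSS, the downstream share was 64.1% (61.9 to 66.3) for members and 74.5% (72.6 to 76.3) for longer peaks. The window reached 1 kb downstream and 2 kb upstream. With peaks between opposite-strand TSSs kept, 46.5% (44.5 to 48.4) lay downstream. Why more members lay downstream than upstream was not tested.

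By the window rule the nearer edge of a member could lie no more than 2 kb before or 1 kb past the TSS. The distances below describe members within that window. The median gap between the nearer edge of the peak and the TSS was 165 bp, with quartiles of 0 and 476 bp and a largest value of 1992 bp, and 1900 members (76.2%, 74.5 to 77.8) had an edge within 500 bp of the TSS. Upstream members had a median gap of 356 bp and downstream members of 270 bp. Midpoints were most frequent in the 200 bp just past the TSS, which held 642 members, against 319 in the 200 bp just before it.

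Sole and accompanied peaks differed in position. Sole peaks gathered at the TSS, with 498 (34.0%, 31.6 to 36.5) covering it, 736 (50.3%, 47.7 to 52.8) downstream and 230 (15.7%, 13.9 to 17.7) upstream, and a median gap of 72 bp. Accompanied peaks were spread over the window on both sides, with 134 (13.0%, 11.1 to 15.2) covering the TSS, 457 (44.4%, 41.4 to 47.5) downstream and 438 (42.6%, 39.6 to 45.6) upstream, and a median gap of 391 bp. The 200 bp past the TSS held 36.6% of sole midpoints, 10.3% of accompanied midpoints and 30.4% of the midpoints of longer peaks. Since 2 peaks of the list cannot overlap, an accompanied peak could not cover the bases that its longer neighbour already took, and this exclusion is part of the rule by which the 2 kinds were told apart.

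**Figure D1:**
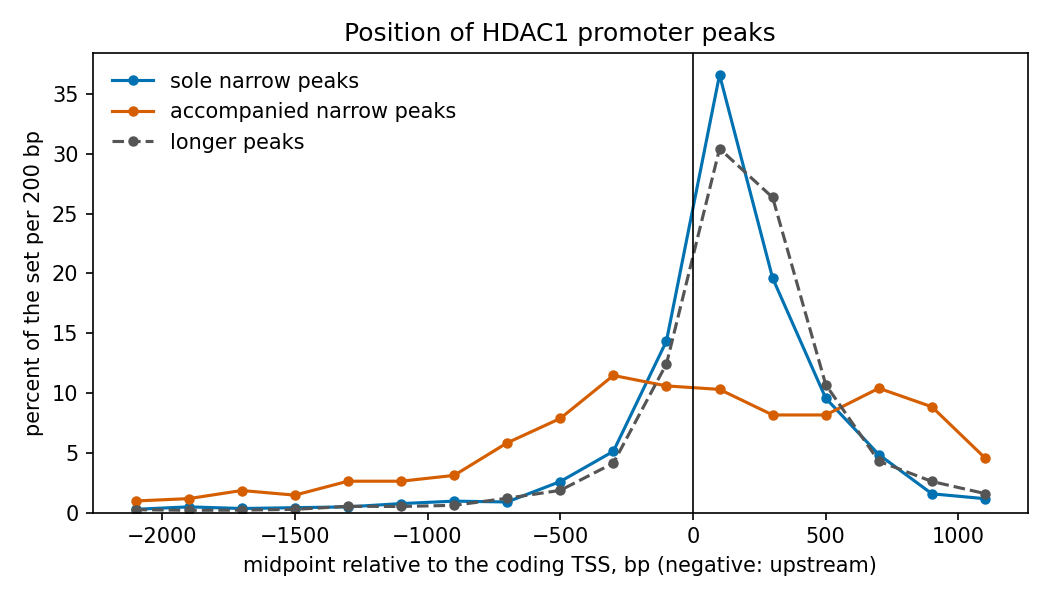
Percent of each set of peaks per 200 bp of midpoint position relative to the nearest coding TSS, for 1464 sole narrow, 1029 accompanied narrow and 7423 longer peaks. Sole narrow and longer peaks rise to 36.6% and 30.4% just past the TSS, while accompanied narrow peaks stay between 7.87% and 11.47% per 200 bp from 600 bp upstream to 1000 bp downstream.

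The distance to the nearest longer peak split the members in a similar way. A peak over 300 bp lay within 500 bp of 817 members (32.8%, 31.0 to 34.6) and within 1 kb of 947 (38.0%, 36.1 to 39.9), whereas 1331 members (53.4%, 51.4 to 55.3) had none within 10 kb. Few fell between these distances, with 52 members at 1 to 2 kb and 59 at 2 to 5 kb. For the 2410 peaks of 300 bp or less outside coding windows, the corresponding shares were 24.9% within 1 kb and 57.8% beyond 10 kb. For the longer promoter peaks themselves, another longer peak lay within 1 kb of 21.9% and was over 10 kb away for 69.0%.

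**Figure D2:**
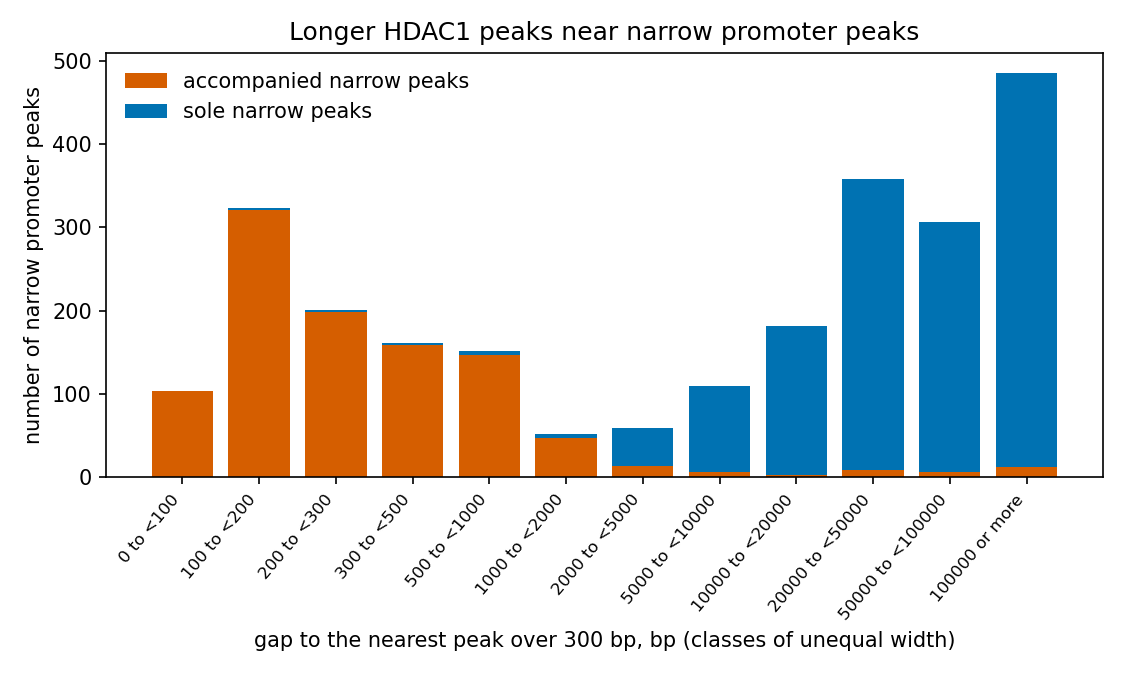
Number of narrow promoter peaks (vertical axis) by gap to the nearest peak over 300 bp (horizontal axis, in bp, in classes of unequal width), with bars stacked by kind. Accompanied peaks make up most of the classes under 1000 bp and sole peaks most of those over 10000 bp, with 52 members in the class from 1000 to under 2000 bp. The kinds are defined by whether a longer peak lies in a window of the gene, so their separation by gap is partly fixed by the rule.

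By definition a sole peak had no longer peak in the windows of its gene, which leaves few within about 1 kb of it, and the distances beyond are a description. Their median gap to the nearest one was 55000 bp, with quartiles of 21812.5 and 133100 bp, and 1299 of them (88.7%, 87.0 to 90.2) were over 10 kb away. Only 13 sole peaks had a longer peak within 1 kb, which then lay outside every window of the gene. Another narrow promoter peak lay within 1 kb of 278 sole peaks (19.0%, 17.1 to 21.1) and of 106 accompanied peaks (10.3%, 8.59 to 12.3).

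Among the 10 best-ranked members, 8 were sole. Crls1, the cardiolipin synthase of mitochondria, led with a peak of 300 bp over its TSS at rank 1317 and no longer peak within 30400 bp. Csnk2a2, a catalytic subunit of casein kinase 2, followed at rank 1953 with a peak 231 bp past the TSS. Tada2a, a subunit of histone acetyltransferase complexes, stood at rank 2289 with a peak 51 bp past its TSS. The peaks of Casp6, an apoptotic caspase (rank 2658), Fip1l1, a polyadenylation factor (rank 2809), Rgs7, a regulator of G protein signalling (rank 2824), and C330018D20Rik (rank 2878) all covered the TSS. Arpp21, a cAMP-regulated phosphoprotein, differed in having its peak 282 bp before the TSS at rank 2504, with the nearest longer peak 544750 bp away. Fip1l1 was the least isolated of the 8, with a longer peak 3400 bp away.

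The other 2 of the 10 were Id2 and Paqr9. The Id2 peak at rank 1978, printed above, began 110 bp before the TSS and lay 150 bp from a longer peak of 1400 bp at rank 666 that was itself wholly upstream of the TSS. Paqr9, a member of the progestin and adipoQ receptor family, had a narrow peak over its TSS at rank 2209, and the longer peak of 750 bp, which lay downstream, stood far lower at rank 12896. The 2 genes thus had opposite orders of the narrow and the longer peak.

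By definition an accompanied peak had a longer peak in a coding TSS window of its gene. Where both peaks shared a window, the window rule itself kept the gap between them short, and the gaps are given as a description. The median gap to the longer peak was 200 bp, with quartiles of 150 and 450 bp. Of the 1029 accompanied peaks, 808 (78.5%, 75.9 to 80.9) lay within 500 bp of the longer peak. The smallest gap was 50 bp, which is also the smallest gap between any 2 peaks of the list. The longer peak had a median length of 650 bp, ranged from 350 to 8000 bp and covered a TSS of the gene in 652 cases (63.4%, 60.4 to 66.3). Narrow peaks lay on both sides of it in nearly equal numbers, 495 (48.1%, 45.1 to 51.2) on the gene-body side and 534 (51.9%, 48.8 to 54.9) on the upstream side.

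In 40 accompanied cases (3.89%, 2.87 to 5.25) the longer peak was over 5 kb away, at another TSS of the same gene. Nrg1, a ligand of ErbB receptors, was the most distant case among the genes with the most members, with narrow peaks at 1 TSS whose gaps to the longer peak of the gene were 874600 and 874900 bp, and a further narrow peak 450 bp from that longer peak. Prrx2, a homeobox factor of limb mesenchyme, had 3 narrow peaks, at 11700, 400 and 300 bp from a longer peak of 600 bp.

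The narrow peak stood below its longer neighbour in the list in 877 of 1029 cases (85.2%, 82.9 to 87.3), a comparison within the call that chose both. The share was 71.5% where the longer peak was 350 to 500 bp and 98.6% where it was over 1000 and up to 2000 bp, and all 39 narrow peaks beside a longer peak over 2000 bp ranked after it. Of the 152 in the opposite order, 103 had a longer peak of 500 bp or less. Beside the longest neighbours, Sema3f, a secreted semaphorin, had a narrow peak at rank 4614 that lay 350 bp from a peak of 2700 bp at rank 243. Scrt1, a Snail-family repressor, had one at rank 5462 that lay 200 bp from a peak of 3250 bp, which was the first of the whole list. Igf2bp2, an RNA-binding protein gene, had one at rank 6051 in an intron that lay 100 bp from a peak of 3000 bp at rank 241.

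**Figure D3:**
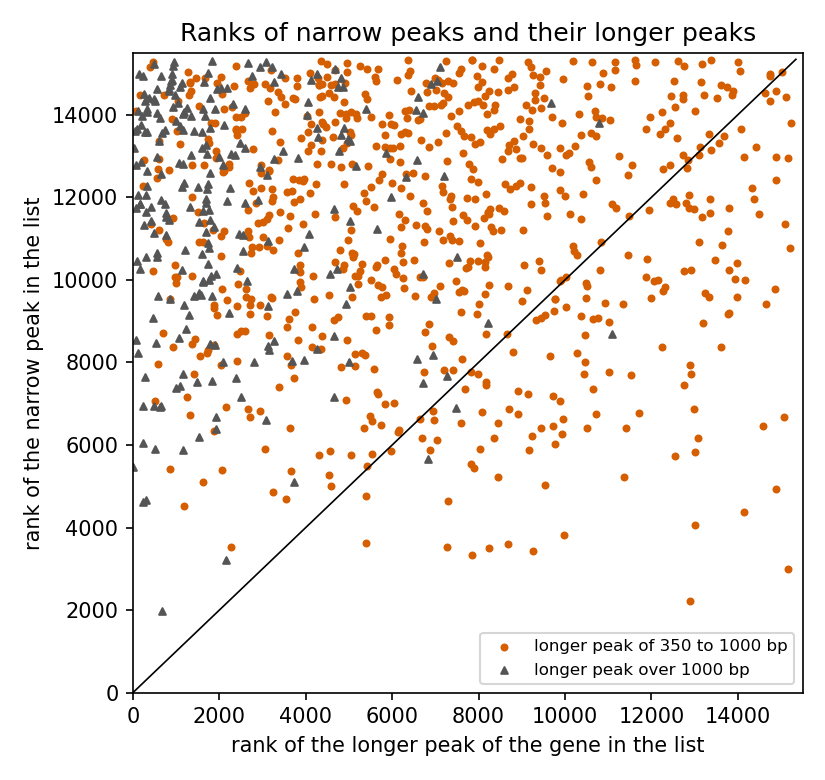
Rank in the peak list of each accompanied narrow peak (vertical axis) against the rank of the longer peak of its gene (horizontal axis), with the diagonal of equal ranks. Points above the diagonal, 877 of 1029, are narrow peaks listed after their longer peak, and narrow peaks beside longer peaks over 1000 bp (triangles) lie almost wholly above it.

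The members overlapped exons in 59.4% (57.5 to 61.4) of cases. A 5′ UTR was overlapped by 1082 members (43.4%, 41.5 to 45.4), and 763 (30.6%, 28.8 to 32.4) overlapped coding sequence. No exon was overlapped by 576 members inside a coding gene (23.1%, 21.5 to 24.8), hence in an intron, and by 435 outside coding genes (17.4%, 16.0 to 19.0). Sole peaks overlapped a 5′ UTR in 56.9% (54.3 to 59.4) and accompanied peaks in 24.2% (21.7 to 26.9). Among downstream peaks, 28.4% (25.3 to 31.8) of sole and 55.8% (51.2 to 60.3) of accompanied peaks lay wholly in introns. A TSS of a gene of any type other than protein-coding lay within 500 bp of the midpoint of 9.07% (8.0 to 10.3) of members and 12% (11.3 to 12.7) of longer peaks. Noncoding transcripts of coding genes were not counted.

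Many members were at genes with several starts. Genes with more than 1 coding TSS held 1467 members (58.8%, 56.9 to 60.8) and a like share of longer coding-promoter peaks (58.1%, 57 to 59.2). Such genes made up 51.2% of all coding genes, and each has more than 1 window in which a peak can fall. For 555 of the 1467 members (37.8%, 35.4 to 40.3) the nearest TSS was the 5′-most of the gene. The same share was 27.8% (26.5 to 29.2) for longer peaks, 33.1% (30.0 to 36.4) for sole peaks and 43.9% (40.1 to 47.8) for accompanied peaks. Disp1 was a case with 2 sole peaks, at 89 bp and 1160 bp before 2 different TSSs.

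Base composition was measured in the 200 bp centred on each midpoint. A window was called CpG-rich when its GC content was at least 50% and its CpG count at least 0.6 of that expected from its C and G content. The median GC content was 63.0% for members (quartiles 55 and 69.5), 69.5% for longer promoter peaks and 51.0% for short peaks outside coding windows. Members were CpG-rich in 63.0% (61.1 to 64.9), longer promoter peaks in 85.8% (84.9 to 86.5) and short peaks outside coding windows in 16.8% (15.4 to 18.4). Of the 200 bp windows centred on the 5′-most coding TSS of all coding genes, 49.9% were CpG-rich.

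Sole peaks were CpG-rich in 76.2% (74.0 to 78.3) and accompanied peaks in 44.1% (41.1 to 47.2), with median GC contents of 65.5% and 57.5%. In coding promoters at large CpG-rich sequence thins out away from the TSS, and accompanied peaks lay farther from it, so the share was also taken by position. All coding promoters were placed by the 5′-most TSS of each gene, and peaks by their nearest coding TSS. All coding promoters include those of the 12401 genes counted with neither a narrow nor a longer promoter peak. With the midpoint in the 200 bp past the TSS, 88.6% of 536 sole peaks (85.7 to 91.0), 70.8% of 106 accompanied peaks (61.5 to 78.6) and 94.2% of longer peaks were CpG-rich, against 51.0% of all coding promoters at that position. At 600 to 800 bp past the TSS the shares were 40.8% of 71 sole peaks (30.2 to 52.5), 29.0% of 107 accompanied peaks (21.2 to 38.2) and 17.1% of all coding promoters. At 400 to 600 bp before the TSS they were 47.4% of 38 (32.5 to 62.7), 39.5% of 81 (29.6 to 50.4) and 10.3%. Of the 15 position classes, 8 held at least 20 peaks of each kind, and the sole share was above the accompanied share in these 8. The intervals of the 2 kinds did not overlap in 2 of the 8, which lay at 0 to 200 bp and at 200 to 400 bp past the TSS (82.2%, 77.4 to 86.2, against 66.7%, 56.1 to 75.8, in the latter). Among the sparser classes the order was reversed at 1000 to 1200 bp before the TSS, with 18.2% of 11 sole and 33.3% of 27 accompanied peaks.

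**Figure D4:**
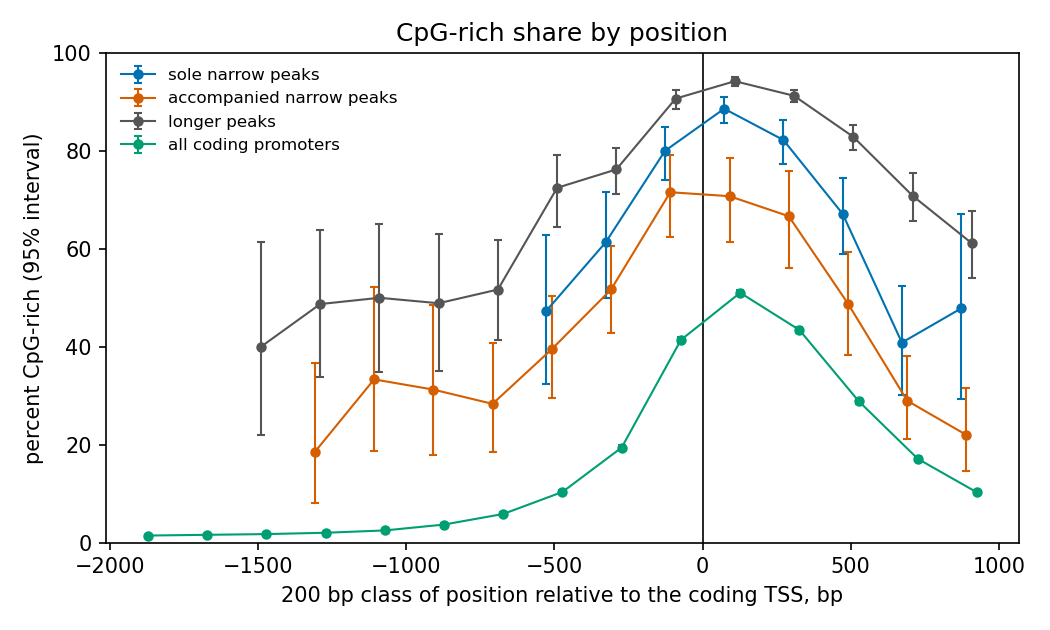
Percent of CpG-rich 200 bp windows (vertical axis, with 95% Wilson intervals) by position relative to the coding TSS (horizontal axis, bp) for sole narrow, accompanied narrow and longer peaks, in classes of at least 20 peaks, and for all coding promoters. All coding promoters are placed by the 5′-most TSS of each gene, and peaks by their nearest coding TSS. Both kinds of narrow peak lie above all coding promoters at every position drawn, with sole peaks at 88.6% and accompanied peaks at 70.8% in the class just past the TSS.

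The motifs searched were the GC box GGGCGG, the CCAAT box CCAAT, the ETS site CCGGAAG, the NRF1 site GCATGCGC, the YY1 site AAGATGGCG, the CRE core TGACGT, the E-box CACGTG, the AP-1 site TGANTCA, the GLI core GGGTGGTC, the TATA box TATAAA, the homeobox core TAATTA, the TEAD site GGAATG and the E2F site GGCGGGAA, each searched on both strands, where E2F and GC box letters can overlap. The GC box was found in the 200 bp windows of 35.8% (34.0 to 37.7) of members, 51.9% of longer peaks, 12.9% of short peaks outside coding windows, 41.6% of all coding promoters centred on the TSS and 12.4% of 200 bp tiles over all coding windows. Among members it was in 46.9% (44.4 to 49.4) of CpG-rich windows and 17.0% (14.7 to 19.6) of the others.

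The CCAAT box was found in 16.4% (15.0 to 17.9) of members against 10.3% of longer promoter peaks, 27.7% of coding promoters and 24.0% of tiles. The ETS site was in 5.82% (4.96 to 6.80) against 7.19%, 9.69% and 2.2% in the same order. The TATA box was in 2.81% (2.23 to 3.53) of members, 1.12% of longer promoter peaks, 7.94% of coding promoters and 11.8% of tiles. The homeobox core was in 1.81% (1.35 to 2.41), 0.66%, 2.32% and 4.66%. The E-box was in 5.17% (4.37 to 6.12) of members, 4.89% of longer promoter peaks, 5.61% of promoters and 2.9% of tiles. The CRE core was in 3.61% (2.95 to 4.42), 2.99%, 6.71% and 2.4%. The GLI core, the centre of the site bound by the transcription factors of the hedgehog pathway, was in 18 members (0.722%, 0.457 to 1.14), 0.862% of longer peaks, 1.04% of short peaks outside coding windows and 0.471% of promoters. The remaining 5 motifs were in 1.24% to 7.02% of members. The NRF1 site was in 1.85% of members, 1.37% of longer promoter peaks and 2.76% of promoters, and the TEAD site in 7.02%, 5.48% and 7.61%.

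The members belonged to 2240 genes, 10.3% of the 21851 protein-coding genes, counting for each peak the gene of its nearest TSS. Under a wider rule, 8140 genes (37.3%) had a peak over 300 bp in a coding window, whether or not theirs was the nearest TSS. These shares are therefore not counted alike. Counted in these ways, a narrow peak was the only kind at 1310 genes, 930 genes had both kinds, 7210 had a longer peak alone and 12401 had neither. Genes counted without a narrow peak can still have had such a peak in their windows. It could lie nearer to the TSS of another gene or be left out as lying between opposite-strand TSSs. The 5′-most promoter was CpG-rich in 77.3% (75 to 79.5) of genes with a narrow peak alone, 80.2% (77.5 to 82.6) of those with both kinds, 84.4% (83.6 to 85.2) of those with a longer peak alone and 24.7% (23.9 to 25.5) of those with neither. The windows of 179 members overlapped those of 2 genes and the windows of 7 members those of 3 genes, for which the gene is uncertain.

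Most genes held a single narrow peak. There were 2010 genes with 1 member, 209 with 2, 19 with 3 and 2 with 4. The 209 pairs spanned a median of 750 bp from the first to the last base, and 127 of these genes had no longer promoter peak. Abtb1, an ankyrin repeat and BTB domain gene, had 4 members with nearer edges from 850 bp before to 151 bp past its TSS. Their ranks were 10134, 10338, 13327 and 15174, and no longer peak lay nearer than 31250 bp. Frmd4a, a FERM domain gene with several starts, had its 4 members in 2 places in its introns, each place beside a longer peak of 350 bp.

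Other genes had 3 narrow peaks, at the same TSS or at different TSSs, and no longer promoter peak. Rpl39, a ribosomal protein gene on X, had members at its TSS and at 453 and 953 bp past it, at ranks 12175, 9470 and 5956, the best rank being the one farthest from the TSS. Nefm, a neurofilament gene, had members before, over and 447 bp past its TSS. Egfr, the EGF receptor, had 3 members from 39 to 939 bp past its TSS and no longer peak within 405750 bp. Zfp36, which encodes an RNA-binding protein that destabilises cytokine mRNAs, had 2 members before 1 TSS and 1 past another TSS, the last at rank 5842. Lmo2, a LIM-domain factor of blood formation, and Tmem65, a mitochondrial membrane protein gene, each had 3 members from over a TSS to 606 bp and 931 bp past a TSS. Ank3, Fhl1, Hadh and Tmem132e also had 3 members and no longer promoter peak. Bcorl1, Ptprt, Tmem178b and Trhde had 3 members and a longer peak of 350 to 550 bp. Nrg1, Prrx2, Hoxc10, Hes7 and Pou3f1, also with 3 members, are given elsewhere. Of the 19 genes with 3 members, 11 had all of them at the same nearest TSS. The members of Fhl1, Bcorl1 and Ptprt were not all at the same TSS, and each member of Ank3 was at a different one.

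Hes7 and Pou3f1 had rows of narrow peaks that ended next to a longer peak outside the window. Hes7, a basic helix-loop-helix repressor of the segmentation clock, had members over its TSS and 396 and 896 bp past it, and the longer peak lay 100 bp from the last of them. Pou3f1, a POU-domain factor, had members over its TSS and 343 and 793 bp past it, with a longer peak 200 bp from the last. These longer peaks began too far from the TSS to count for the gene, so both genes were counted as having a narrow peak alone.

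Transcription factors of limb patterning held narrow peaks together with longer ones. Of 53 genes listed, 18 (34.0%, 22.7 to 47.4) had a member, against 10.3% of all coding genes, and 17 of the 18 also had a longer promoter peak, as did 30 further genes of the list. The exception was Dlx6, a distal-less homeobox factor, whose 2 members lay 316 and 866 bp past the TSS at ranks 10727 and 6762, the latter the best rank of the list. Tbx15, a T-box factor, had a member 1661 bp before the TSS and 450 bp from a peak of 6100 bp at rank 84 that covered the TSS. Prrx1, the mesenchyme homeobox factor, had one 1790 bp before the TSS and 200 bp from a peak of 8000 bp at rank 120. Alx4, which restricts the posterior signalling centre of the limb bud, had one over a TSS and 100 bp from a peak of 1650 bp at rank 1620.

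Within the same list, several members lay far upstream at late ranks. Tbx3 and Tbx4, both T-box factors, had members 1520 and 1916 bp before the TSS at ranks 14832 and 15007. Hoxd13 and Hoxd12, the 5′-most genes of the HoxD cluster, had members 1011 and 764 bp before the TSS at ranks 14909 and 14666, with longer peaks 200 and 150 bp away that did not cover the TSS. Irx5 (rank 8947), Sox6 (rank 9134) and Shox2 (rank 14659) had members within 650 bp of a longer peak of the gene, on the gene-body side for Irx5 and on the upstream side for the other two. Lists of this kind count genes that share a narrow peak and do not say that HDAC1 acts on them.

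Hox genes had members in 10 of 39 cases (25.6%, 14.6 to 41.1), beside 10.3% of all coding genes, and 6 of the 10 had a longer peak as well. Of these 10 genes, Hoxc10 was the one with 3 members, 747 bp before, over and 254 bp past the TSS at ranks 9729, 10595 and 13645. Hoxc11 had 2, at 378 and 1928 bp before the TSS, on the upstream side of a longer peak of 350 bp. Hoxc12, Hoxc4, Hoxb4 and Hoxb7 had a narrow peak and no longer promoter peak.

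In the hedgehog pathway, 5 of 25 genes (20%, 8.86 to 39.1) had a member, an interval that includes the 10.3% of all coding genes. Of these 5 genes, 2 had a longer peak as well, and 14 further genes had a longer peak alone. Gli2, a transcription factor at the end of the pathway, had a member 531 bp before its TSS and 150 bp from a longer peak of 1450 bp that covered the TSS. Cdon, a hedgehog co-receptor, had one in its intron 892 bp past the TSS and 300 bp from a peak of 1000 bp. The sole cases were Disp1, Hhat, which palmitoylates the ligand and had a peak 64 bp past its TSS, and Evc2, a ciliary component with a peak of 150 bp that began 1 bp past its TSS at rank 14974.

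Of 40 signalling ligands and receptors of the limb, 6 (15.0%, 7.06 to 29.1) had a member and 31 had a longer peak alone. The interval includes the 10.3% of all coding genes. Fgfr1, an FGF receptor, had a member 1160 bp before the TSS at rank 13609 beside a peak of 2500 bp at rank 44. Wnt5a had one 1651 bp before the TSS at rank 14986, 1100 bp from a peak of 8000 bp at rank 136. Fgf9 and Smad5 had members in the gene beside longer peaks that covered a TSS. Smad5, though on the list, encodes an intracellular signal transducer and neither a ligand nor a receptor. Fgf8, the ligand of the apical ridge, and Wnt3 had a narrow peak alone, at ranks 13856 and 13370.

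Chromatin regulators were counted in 2 lists. Of 34 Polycomb and Trithorax genes, 8 (23.5%, 12.4 to 40.0) had a member, beside 10.3% of all coding genes, and 7 of these 8 had a longer peak too. They included Rnf2 (rank 5428), Ring1 (rank 8023), Bmi1 (rank 8692) and Pcgf2 (rank 11193), all subunits of Polycomb repressive complex PRC1, each with a longer peak of 550 to 1250 bp, while Cbx7 (rank 9137) had a narrow peak alone in its intron 241 bp past the TSS. Of 40 genes for class I and II histone deacetylases and their corepressor subunits, 1 (2.50%, 0.443 to 12.9) had a member, and 34 had a longer peak alone. This interval includes the 10.3% of all coding genes. The intervals of the 2 lists overlapped, and their difference was not tested. The gene was Sap130, a Sin3 complex subunit, with members 117 and 817 bp past its TSS at ranks 7532 and 9949.

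Among genes of general cell functions, members were held by 14 of 81 cytoplasmic ribosomal protein genes (17.3%, 10.6 to 26.9), 11 of 78 mitochondrial ribosomal protein genes (14.1%, 8.06 to 23.5), 7 of 48 proteasome genes (14.6%, 7.25 to 27.2), 8 of 67 clustered histone genes (11.9%, 6.18 to 21.8), 48 of 391 Zfp zinc finger genes (12.3%, 9.39 to 15.9) and 37 of 371 solute carrier genes (9.97%, 7.32 to 13.4). The share over all coding genes was 10.3%. It lay inside each of these intervals but that of the cytoplasmic ribosomal protein genes. The split by kind varied among the lists, as 9 of the 11 mitochondrial ribosomal protein genes and 35 of the 48 Zfp genes had a narrow peak alone, against 6 of the 14 cytoplasmic ribosomal protein genes. Over all genes with a member, 1310 of 2240 had a narrow peak alone. Among 1133 olfactory receptor genes and 53 keratin genes there were 0 members, which allows shares of up to 0.338% and 6.76% (upper Wilson bounds), and 1 gene of each family had a longer peak.

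Markers of the cell types in a limb bud were counted because the list holds no expression. Of all coding genes, 10.3% had a member and 37.3% had a longer promoter peak, shares that are not counted alike, as given above. Among markers of limb mesenchyme and cartilage, 3 of 10 genes had a member (Prrx1, Shox2 and Acan, the last with a narrow peak alone 384 bp before the TSS) and 8 had a longer peak. Of 11 skeletal muscle markers, 2 had a member (Lbx1 and Pax7, both without a longer promoter peak) and 2 others had a longer peak. The Lbx1 members lay 300 and 700 bp from a longer peak outside the windows of the gene. Of 10 ectoderm markers, Fgf8 alone had a member, and 2 others had a longer peak. Of 12 blood and endothelial markers, Tal1 and Flt1 had a member, Flt1 with a longer peak too, and 1 other had a longer peak alone. The 95% intervals of the share with a member were 10.8 to 60.3% for mesenchyme and cartilage and 5.14 to 47.7% for muscle. They were 1.79 to 40.4% for ectoderm and 4.70 to 44.8% for blood and endothelium. All but the first include 10.3%. A peak at a marker does not tell which cells held it.

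**Figure D5:**
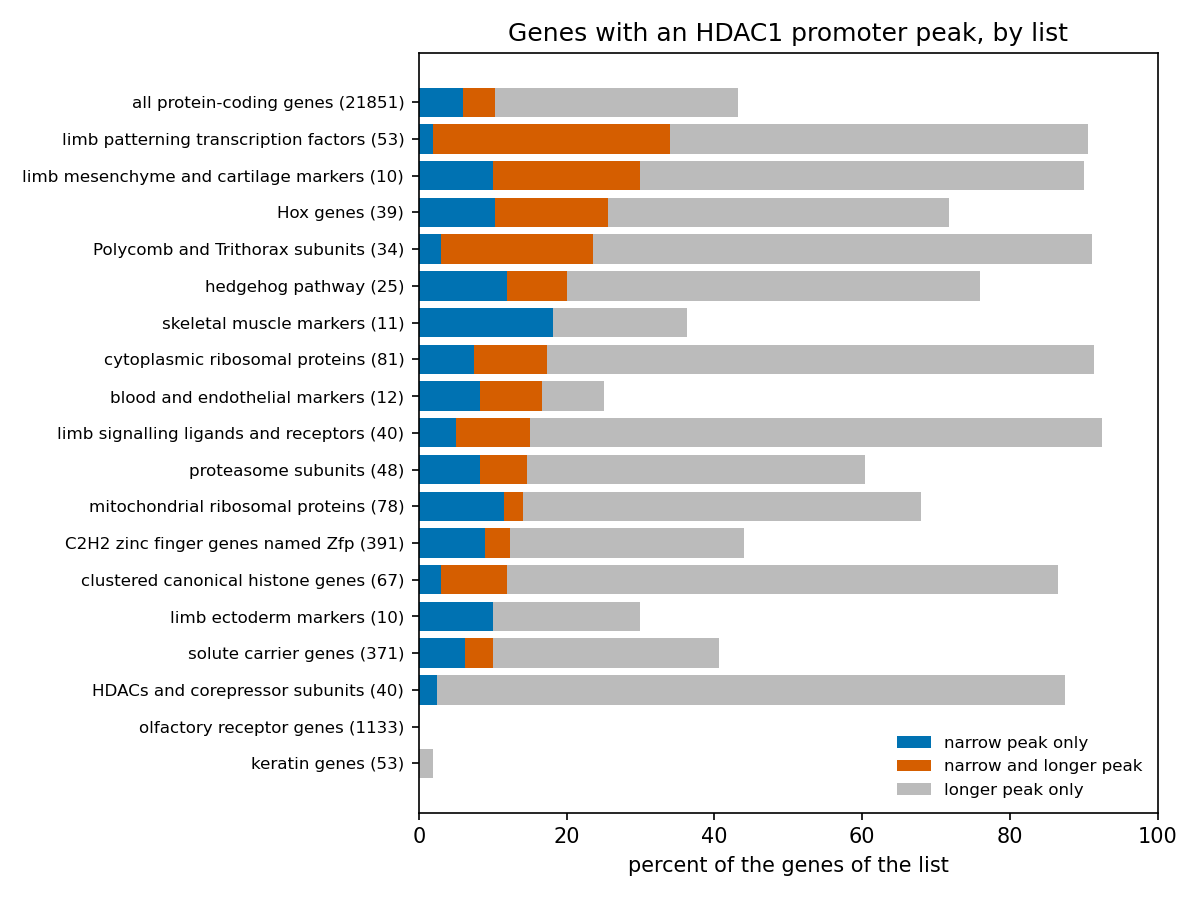
Percent of the genes of each list (number of genes in brackets) with a narrow peak alone, with both kinds of promoter peak and with a longer peak alone, lists ordered by the share with a narrow peak and all protein-coding genes on top. Narrow peaks are counted for the gene of the nearest TSS, and longer peaks for any gene whose coding window they overlap. Limb patterning factors stand at 34.0% with a narrow peak, nearly all of it shared with a longer peak, against 10.3% of all protein-coding genes.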

How the data were processed

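HDAC1 ChIP-seq of mouse limb buds comprised 4 ChIP and 3 input samples. Peak calling by the authors used CisGenome over the samples together, with a false discovery rate under 0.05, and they deposited 1 list of coordinates on mm10, and the submitters' processing notes name Bowtie2 2.2.5. The deposited values are coordinates, in rank order, without counts or values per sample, so no test between samples was made. The enrichment and false discovery rate listed per peak with the paper were not used here.

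All 15347 starts were multiples of 50 and all ends multiples of 50 plus 49, so starts may be counted from 0. They were read as 1-based, and the other reading was tried. GENCODE M21 basic gave 41451 coding TSSs of 21864 genes, of which 21851 lie on chromosomes with sequence, and GRCm38.p6 from RefSeq gave sequences. Geometry and motif searches were written in Python 3.11.15 with pandas 2.3.3, numpy 2.4.6 and scipy 1.17.1, and tested on simulated regions.

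The peaks described, the gene lists and the motifs were chosen with earlier results of these data known. Genes named were the 10 best-ranked members, up to 5 best-ranked members per list of symbols, the 5 best-ranked sole members over 10 kb from a longer peak, genes with 3 or more members and the 3 best-ranked accompanied members beside a peak over 2000 bp. Other names, including further members of lists, were chosen after their values were seen, as were the counts by position, by TSS order and by length of the longer peak. A further sequence is not reported here. Sequences were not drawn from chromosome 18.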

Additional observations from a re-analysis of the deposited data

How the results depend on the processing

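Each of 6 summary values was recomputed under 13 other settings, and 49 of the 78 values stayed within 1.5 times the count or inside the interval of the reported value. With only the first 0.75 of the ranked list there were 1235 members at 1157 genes, a median gap to the TSS of 122 bp, 31.5% with a longer peak within 1 kb and 67.2% CpG-rich. With peaks 1000 bp or less apart merged first, there were 1243 members at 1231 genes, a gap of 64 bp and 75.8% CpG-rich, and the share with a longer peak within 1 kb was 0 by construction. A limit of 250 bp gave a gap of 204 bp, 43.5% near a longer peak and 59.3% CpG-rich. A limit of 350 bp gave 45.6% downstream, 130 bp, 32.9% and 65.5%. The 5′-most TSS alone gave 54.7% downstream, 196 bp and 65.2% CpG-rich, and the TSSs of all basic transcripts gave 186.5 bp and 58.6%. A window of 1 kb on both sides gave 50.3% downstream, 140 bp and 64.9% CpG-rich. A window of 5 kb on both sides gave 54.7%, 306 bp, 41.3% near a longer peak and 55% CpG-rich. The cause was not tested. Starts read as 0-based left 2493 members. No paired analysis was possible because 1 list stands for all samples, and for the same reason no replicate could be left out. Weak binding sites may be missing from the list at its depth.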
